A study of Mus musculus with 12 samples.

Results

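The small nucleolar RNA (snoRNA) host genes described here are 9 long noncoding genes, Gas5, Snhg1, Snhg3, Snhg5, Snhg6, Snhg8, Snhg12, Snhg15 and Zfas1, out of 52636 Ensembl identifiers in the count table. They were chosen by name, with earlier results of these data known, around the higher level of Snhg6 in GFP+ than in GFP- cells, to see whether that difference was shared by the other 8. All 9 passed the filter on low counts, among 14173 genes tested. Because the genes were chosen with the GFP comparison in view, GFP differences are descriptions, and the numbers of calls printed for that comparison are not used as tests of these genes. Tests were kept to anti-PD-L1 treatment and, for the hosts other than Snhg6, to its interaction with GFP. The non-treated libraries that showed the Snhg6 difference also enter its treatment comparisons, which are therefore not fully independent of that choice, and its interaction contains that difference itself and is a description.

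The 12 libraries were QuantSeq 3′ RNA-sequencing libraries, whose reads are taken near the 3′ ends of polyadenylated transcripts, from CD8+ T cells sorted out of AT-3 ova tumors, a mouse mammary carcinoma line expressing ovalbumin. The hosts were A2AR eGFP reporter mice, female and 6 to 16 weeks old, on a C57BL/6 background. In these mice a bacterial artificial chromosome carries eGFP at the start codon of Adora2a, the gene of an adenosine receptor, so GFP reports Adora2a promoter activity from a transgene and not the receptor protein. Every mouse received 500000 tumor cells subcutaneously and tumors were taken at day 21, and the anti-PD-L1 groups also received the antibody at days 14 and 18. Each group held 3 libraries, each a pool of 3 mice, identified by their codes: KT14, KT16 and KT18 (non-treated GFP-), KT13, KT15 and KT17 (non-treated GFP+), KT20, KT22 and KT24 (anti-PD-L1 GFP-), and KT19, KT21 and KT23 (anti-PD-L1 GFP+). Which GFP+ and GFP- pools came from the same mice is not given.

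A snoRNA host gene is transcribed as a whole and spliced, and its introns are trimmed to snoRNAs that stay in the nucleus and guide chemical modification of ribosomal RNA. Box C/D snoRNAs guide methylation of the ribose and H/ACA snoRNAs guide the conversion of uridine to pseudouridine. The spliced exons that remain make the polyadenylated RNA counted here. Many host RNAs begin with a run of pyrimidines, the 5′ TOP motif that they share with mRNAs of ribosomal proteins, and many are broken down by nonsense-mediated decay when ribosomes engage them. Their steady level therefore follows both transcription and growth-dependent translation, which is how Gas5, named for growth arrest, was first isolated. T cells raise ribosome production when they are activated.

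The genes lie on 7 chromosomes of GRCm38/mm10, with 33 annotated snoRNA genes inside them on the same strand. Snhg6 lies at chr1:9941959-9944118 on the minus strand, spans 2160 bases and holds the box C/D snoRNA gene Snord87. Snhg3, at chr4:132348014-132353686 on the minus strand, holds Snora73a and Snora73b, H/ACA snoRNA genes known for a role in cleaving the ribosomal RNA precursor, and Snhg12, at chr4:132308623-132311024 on the plus strand, holds 5 annotated snoRNA genes. Gas5 (chr1:161034422-161038539, plus strand) holds 10, Snhg1 (chr19:8723475-8726443, plus strand) holds 8 and Zfas1 (chr2:167062934-167065862, plus strand) holds 3. Snhg5 (chr9:88521050-88522929, minus strand) holds Snord50a and Snord50b, while Snhg8 (chr3:123507552-123508404, minus strand) and Snhg15 (chr11:6525591-6528760, minus strand) hold 1 each, Snora24 and Snora9.

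The box sequences that sort the snoRNAs into their families could be read directly. TGATGA (box C) near the 5′ end together with CTGA (box D) near the 3′ end was found in 20 of the 33, and ACA near the 3′ end in 7, searched on the snoRNA strand only. The remaining 6 held neither in exactly these letters. The 3 sequences below, from the GENCODE vM21 transcripts, are those of Snord87 and Snora73b, the only hosted snoRNA genes with any counts, and of Snora24 from Snhg8. Capitals mark box C and box D in Snord87 and the ACA in the others. The genomic positions are chr1:9942463-9942549, chr4:132352322-132352526 and chr3:123507937-123508066, all on the minus strand.
Snord87 (in Snhg6): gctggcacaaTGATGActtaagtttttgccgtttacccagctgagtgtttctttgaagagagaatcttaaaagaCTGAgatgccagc
Snora73b (in Snhg3): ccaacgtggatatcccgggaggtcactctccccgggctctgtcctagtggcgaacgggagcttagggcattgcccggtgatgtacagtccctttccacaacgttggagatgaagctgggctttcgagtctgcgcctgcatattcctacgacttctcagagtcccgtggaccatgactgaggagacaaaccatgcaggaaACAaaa
Snora24 (in Snhg8): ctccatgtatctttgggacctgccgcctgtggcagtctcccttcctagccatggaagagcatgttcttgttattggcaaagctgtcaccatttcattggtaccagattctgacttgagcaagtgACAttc

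Start sites were read from RefSeq (GRCm38.p6), which matched 8 of the 9 genes with 9 starts, Gas5 having a pair of them and Snhg6 none. A run of at least 5 pyrimidines that opens with C within 10 bases of the start, on the gene's strand, was found at 5 of the 9 starts (55.6%), against 30.7% of all 32851 starts and 55.7% of 79 starts of ribosomal protein genes. No such run was found at the starts of Snhg1, Snhg15 and Zfas1, or at the other Gas5 start, which is not shown. The windows below, all with a run, are shown for Snhg8 and Snhg3, which were lowest together in a pair of libraries described further on, and for Gas5, whose level varied least. They run from 30 bases before the start to 40 bases from it, at chr3:123508297-123508366 (minus strand), chr4:132353647-132353716 (minus strand) and chr1:161035136-161035205 (plus strand), with the pyrimidine run in capitals.
Snhg8: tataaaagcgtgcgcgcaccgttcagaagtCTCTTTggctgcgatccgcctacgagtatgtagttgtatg
Snhg3: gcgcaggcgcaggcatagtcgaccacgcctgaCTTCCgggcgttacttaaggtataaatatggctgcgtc
Gas5: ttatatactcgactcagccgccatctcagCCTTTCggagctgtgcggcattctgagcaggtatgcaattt

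**Figure D1:**
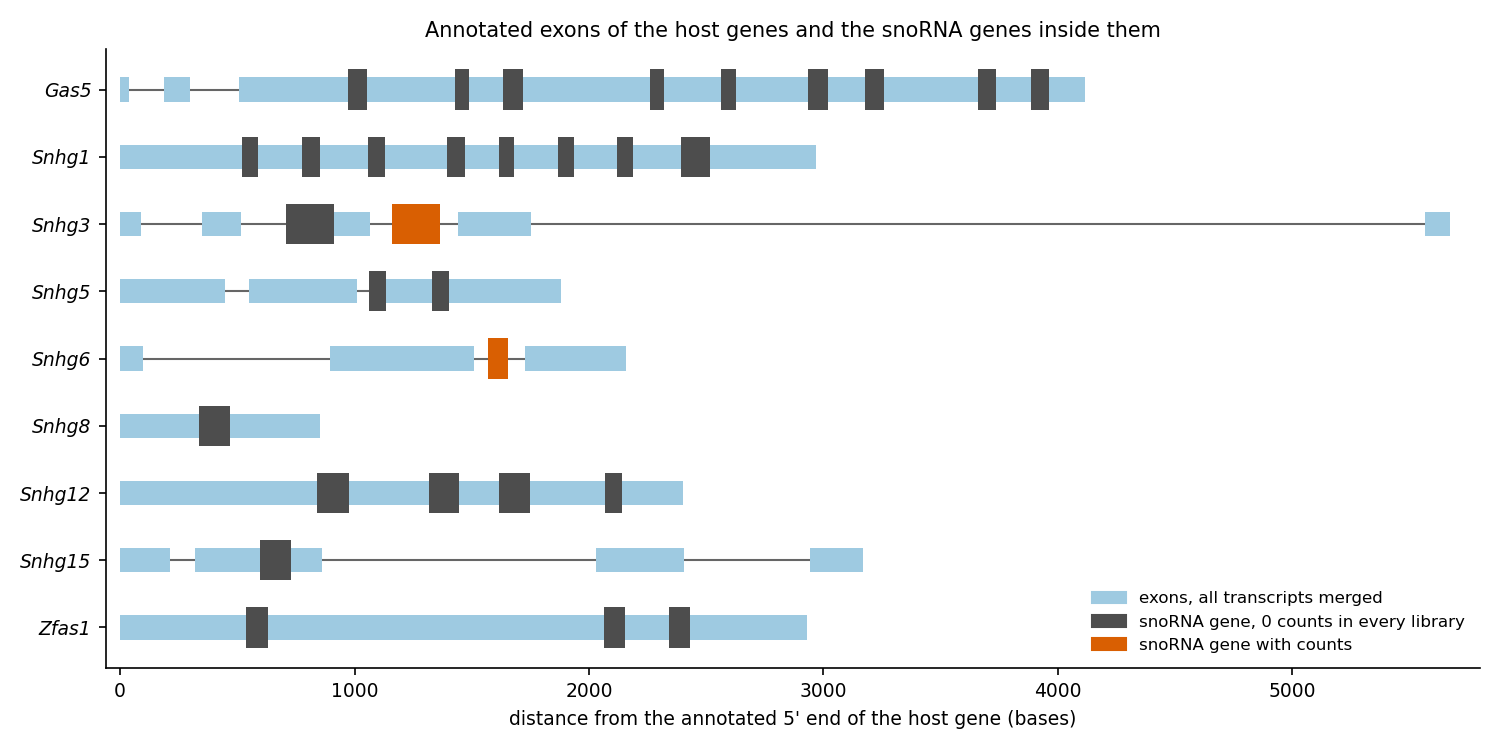
Map of the 9 host genes, drawn to scale as bases from each annotated 5′ end (x axis), with merged exons of all transcripts as pale blocks and snoRNA genes as dark or orange blocks. The 2 orange snoRNA genes, Snora73b in Snhg3 and Snord87 in Snhg6, lie outside the merged exons and have counts, and the 31 dark ones overlap exons and have 0 counts in every library (2 pairs of entries lie almost on top of each other).

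Few counts were assigned to the snoRNA genes themselves in this polyadenylated RNA assay. Of the 33 snoRNA genes, 31 share exonic bases with an annotated transcript of their host and had 0 counts in every library, which allows up to 3 counts (counting error only), or 0.158 to 0.266 CPM before TMM scaling, depending on the library. All other levels are CPM scaled by TMM factors, which correct library size for composition, except the marker levels of cell types and handling, which are unscaled CPM. Since 3′ reads count transcript ends, levels are compared between libraries within a gene and not between genes. A read that falls on exons of both a host and a snoRNA gene may be assigned to neither, so these zeros do not show the RNAs to be absent. Snord87 and Snora73b, the 2 that share no exonic base with their host, had 3 to 41 and 3 to 65 counts. Snord87 ranged from 0.170 CPM in KT14 to 2.92 CPM in KT22, and stood at 0.7997 in KT13 and 2.65 in KT21. Snora73b ranged from 0.227 CPM in KT21 to 5.78 CPM in KT13, a high level where its host was low.

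Shared exons also touch the hosts' own counts. The last 127 bases of Snhg6 at its 3′ end, where 3′ reads are expected, are exonic bases of Mcmdc2 on the opposite strand as well. Mcmdc2 had 0 to 11 counts per library, at 0.80 CPM in KT13, 0.62 in KT14, 0.15 in KT21 and 0 in every other library. KT21, KT13 and KT14 were also the lowest libraries of Snhg6, at 2.27, 3.92 and 5.67 CPM. The part of this overlap in the Snhg6 values was not tested. Snhg3 shares 135 exonic bases with Rcc1 on the same strand, among them bases at its 3′ end, and Rcc1, a chromatin-bound nucleotide exchange factor, had 166 to 1239 counts. Zfas1 shares its first 82 bases with Znfx1 on the opposite strand, away from its 3′ end. Whether reads were counted by strand is not given in the sources used here, so Snhg6 carries this uncertainty throughout. Counting by strand would not separate Snhg3 from Rcc1, which is on the same strand, so Snhg3 carries an uncertainty either way. Snhg3 also shares 705 exonic bases with Gm17300 on the opposite strand, which had 0 counts in every library. Those bases end 3919 bases from the 3′ end of Snhg3.

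Libraries totalled 11292699 to 19023900 counts, and the 9 hosts together took 0.110% to 0.143% of them. Adora2a was at 60.2 to 67.3 CPM in non-treated GFP+ against 19.7 to 24.3 in GFP- libraries, and at 66.3 to 111 against 26.0 to 34.6 after anti-PD-L1, as the sort labels say. The 6 CD8 T cell markers summed to 2928 to 5212 CPM, and Cd4 did not exceed 0.912 CPM. The 2 NK cell markers (Ncr1, Klrb1c) summed to 42.3 to 55.8 CPM in GFP+ and 16.1 to 35.2 CPM in GFP- libraries. KT13 (non-treated GFP+) and KT21 (anti-PD-L1 GFP+) stand apart from the other 10 over many genes. Group means, marker levels and gene lists below are over all 12 libraries unless stated. Host comparisons are given with and without KT13 and KT21. Without them each GFP+ group holds 2 libraries, and 14747 genes pass the filter.

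Gas5 was the steadiest host. Its level was 580, 467 and 580 CPM in KT14, KT16 and KT18 (non-treated GFP-) and 592, 530 and 580 CPM in KT13, KT15 and KT17 (non-treated GFP+). After anti-PD-L1 it was 444, 511 and 501 CPM in KT20, KT22 and KT24 (GFP-) and 501, 567 and 562 CPM in KT19, KT21 and KT23 (GFP+). The highest of the 12 libraries was 1.33 times the lowest, a range smaller than that of all but 2.004% of the genes tested. KT13 was its highest library by a small margin, and KT21 lay among the others.

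Snhg6 was the most variable. It was at 5.67, 14.3 and 10.1 CPM in KT14, KT16 and KT18, and at 3.92, 25.7 and 25.8 CPM in KT13, KT15 and KT17. After anti-PD-L1 it was at 11.4, 14.5 and 22.3 CPM in KT20, KT22 and KT24, and at 19.3, 2.27 and 28.8 CPM in KT19, KT21 and KT23. Within each GFP+ group, KT13 or KT21 was below every GFP- library of either treatment, while the other libraries of the non-treated group were above every GFP- library. The highest library was 10.6 times the lowest, a wider range than in 98.2% of the genes tested, and 4.76 times over the 10 libraries without KT13 and KT21, still wider than in 91.5%. Its raw counts were 30 in KT21 and 44 in KT13 against 100 to 406 in the others.

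Snhg8 was at 181, 147 and 167 CPM in KT14, KT16 and KT18 and at 93.6, 169 and 176 CPM in KT13, KT15 and KT17. After treatment the values were 122, 148 and 158 CPM in KT20, KT22 and KT24 and 159, 37.8 and 189 CPM in KT19, KT21 and KT23. Only KT13 and KT21 departed far from the rest: with them the highest library was 4.95 times the lowest, and without them 1.55 times.

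Snhg3 was at 29.95, 31.2 and 30.01 CPM in the non-treated GFP- libraries KT14, KT16 and KT18, the tightest group of any host. In KT13, KT15 and KT17 it was at 15.8, 22.3 and 25.3 CPM, all below those. After anti-PD-L1 the GFP- libraries KT20, KT22 and KT24 were at 22.6, 19.03 and 30.3 CPM, and the GFP+ libraries KT19, KT21 and KT23 at 29.9, 13.3 and 24.9 CPM.

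Snhg15 was at 32.1, 25.8 and 21.9 CPM in KT14, KT16 and KT18 and at 33.7, 26.2 and 27.3 CPM in KT13, KT15 and KT17. After anti-PD-L1 it was at 14.9, 19.5 and 23.1 CPM in KT20, KT22 and KT24, and at 25.8, 23.0 and 21.5 CPM in KT19, KT21 and KT23. In GFP+ cells each treated library was below each non-treated one, by little in the closest pair, and in GFP- cells the groups overlapped. Snhg12 was at 60.2, 48.1 and 70.6 CPM in KT14, KT16 and KT18, and at 62.1, 50.5 and 52.7 CPM in KT13, KT15 and KT17. Its levels after treatment were 46.9, 38.7 and 55.2 CPM in KT20, KT22 and KT24 and 48.4, 41.1 and 47.4 CPM in KT19, KT21 and KT23. As for Snhg15, the GFP+ groups did not overlap and the GFP- groups did.

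Of the other 3 hosts, Snhg1 and Zfas1 moved over narrow ranges, the highest library being 1.62 and 1.59 times the lowest. Snhg5 moved over a wider one, 2.05 times. Snhg1 lay between 153 CPM in KT13 and 248 CPM in KT18, Zfas1 between 175 CPM in KT21 and 277 CPM in KT17, and Snhg5 between 35.8 CPM in KT20 and 74.1 CPM in KT13. Snhg5 in KT13 was 1.63 times the median of the other 10 libraries, and the next highest library was at 52.8 CPM.

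**Figure D2:**
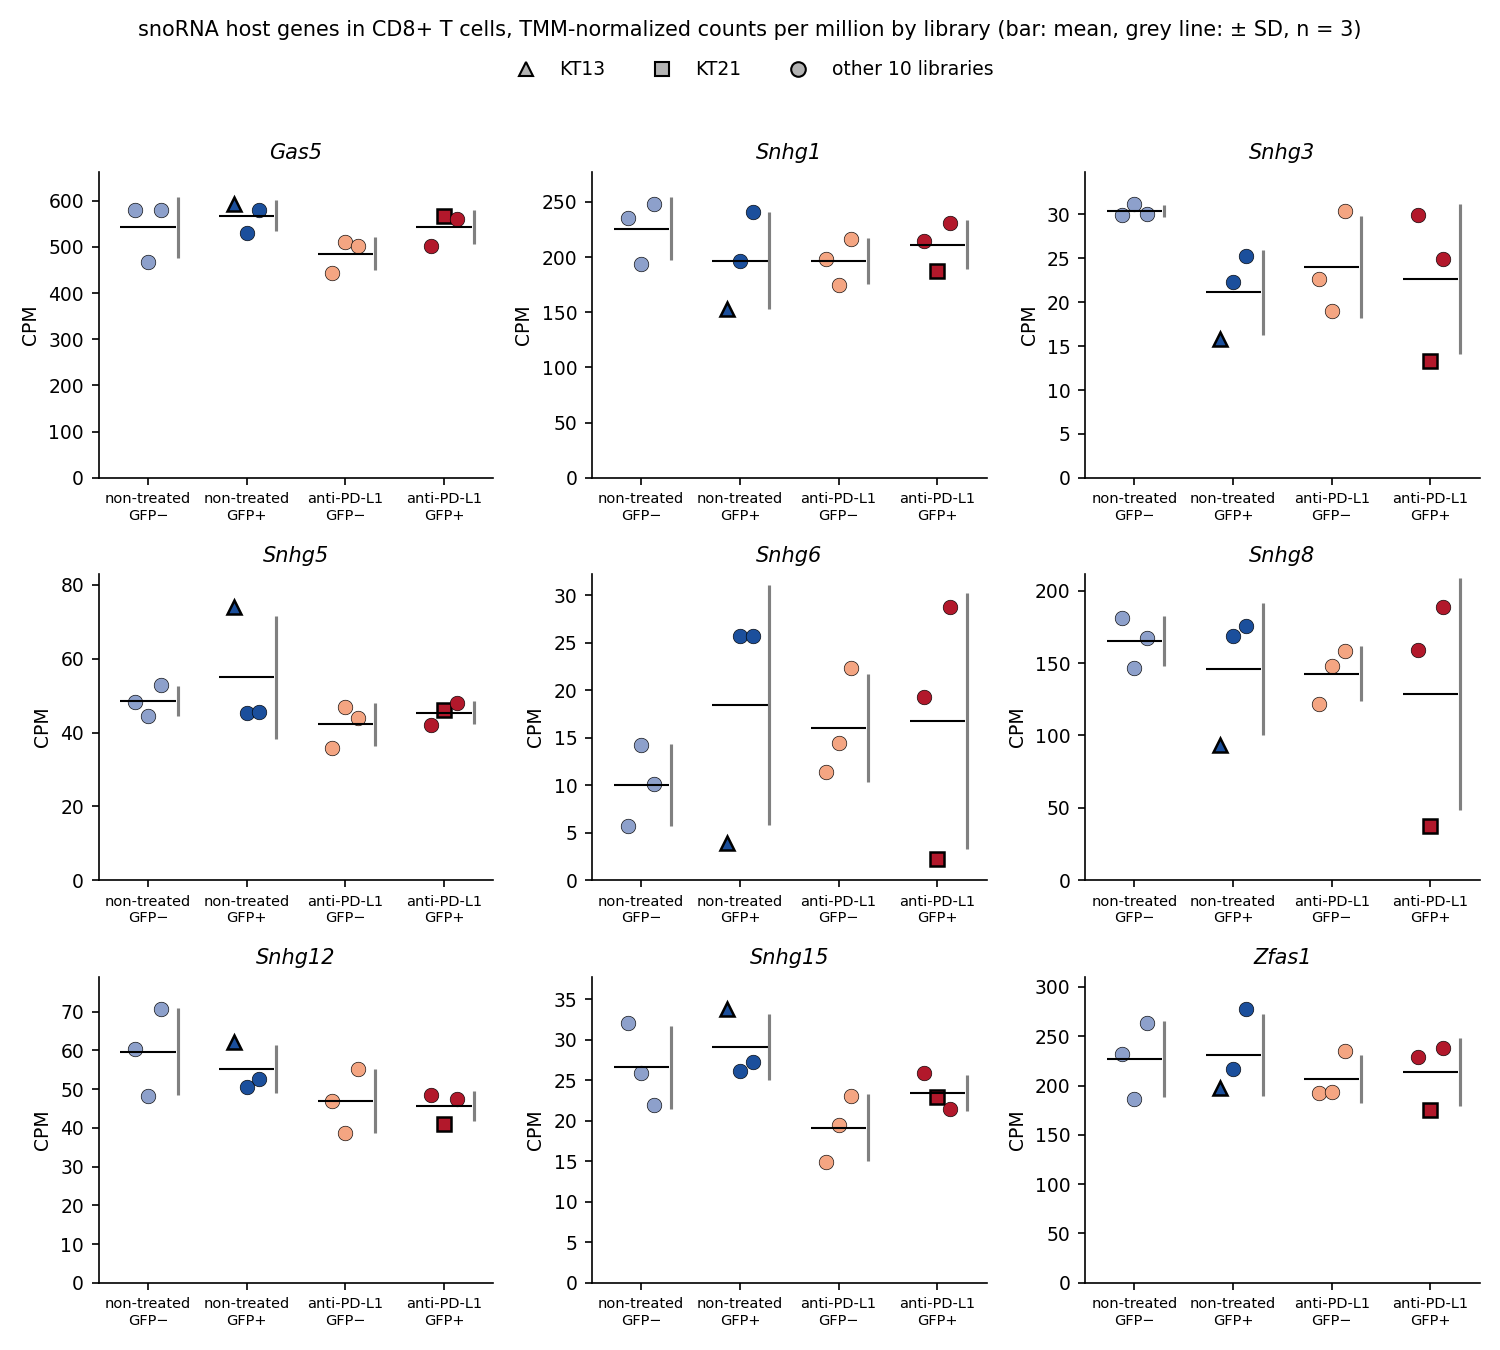
CPM (y axis, from 0, TMM-normalized) of each host gene in the 12 libraries by group (x axis), with points for libraries, a black bar for the mean and a grey line for ± SD (n = 3). Snhg3, Snhg6 and Snhg8 are lowest in KT13 (triangle) and KT21 (square), and Gas5 stays between 444 and 592 CPM.

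Over all 12 libraries, each group of every host overlapped its neighbour when the 4 groups were put in order of their mean. No step in the order was therefore clear of the spread between libraries. The share of all genes with this pattern was not computed, so nothing particular to the hosts is read from it. Snhg6 had the largest ratio of highest to lowest group mean, 1.84, from 10.0 ± 4.29 CPM in non-treated GFP- to 18.5 ± 12.6 CPM in non-treated GFP+ cells (SD, n = 3). The anti-PD-L1 groups lay between these at 16.1 ± 5.66 CPM (GFP-) and 16.8 ± 13.4 CPM (GFP+). The ratio was 1.116 for Zfas1, the smallest, and 1.17 for Gas5. Anti-PD-L1 GFP- cells had the lowest mean for 5 of the 9 hosts, and the highest mean was in non-treated GFP+ cells for 5 and in non-treated GFP- cells for 4. This order changed when KT13 and KT21 were left out. Snhg8 was then highest in anti-PD-L1 GFP+ cells at 173 CPM, and Snhg5 in non-treated GFP- cells at 48.4 CPM. Snhg8 and Snhg12 were then lowest in anti-PD-L1 GFP- cells, at 142 and 46.9 CPM. Snhg6 was then at 25.7 ± 0.059 CPM in non-treated GFP+ and 24.0 ± 6.75 CPM in anti-PD-L1 GFP+ cells (n = 2).

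Treatment with anti-PD-L1 gave no called change in any host. In GFP- cells 0 of 9 passed edgeR's quasi-likelihood F test at an adjusted p under 0.05, against 0.0% of all genes tested (0 of 14173, with 487 at an unadjusted p under 0.05). Among the hosts Snhg15 alone was under an unadjusted p of 0.05, with a log2 fold change of -0.47 (SE 0.21, 95% interval -0.92 to -0.02, edgeR adjusted p = 1). The log2 fold changes of Snhg12 and Snhg3 were -0.35 (SE 0.18) and -0.34 (SE 0.28), those of Snhg8, Snhg5, Snhg1, Gas5 and Zfas1 lay between -0.21 and -0.13, and Snhg6 was the exception at 0.68 (SE 0.72, interval -0.85 to 2.21). So 8 of 9 were lower after treatment, with a median of -0.20 on the log2 scale against -0.0053 over all genes, and none was called. DESeq2 and limma voom with sample weights called 33 and 34 genes and again 0 hosts.

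In GFP+ cells 0 of 9 hosts were called, against 0.0141% of all genes (2 of 14173, both higher, with 955 at an unadjusted p under 0.05). None of the 9 was under an unadjusted p of 0.05. The log2 fold changes ran from -0.31 for Snhg15 (SE 0.21, edgeR adjusted p = 0.879) and -0.27 for both Snhg5 (SE 0.20) and Snhg12 (SE 0.18) to 0.10 for Snhg1 (SE 0.18) and Snhg3 (SE 0.28), and 7 of 9 were below 0. For Snhg6 the value was -0.14, with an interval of -1.66 to 1.37 that spans more than a doubling in either direction. By non-overlap of the groups, Snhg12 and Snhg15 stood lower, 2 of 9 against 10.3% of all genes in either direction and 5.67% that stood lower. In GFP- cells 0 of 9 had groups that did not overlap, against 12.3%. DESeq2 called 93 genes and limma voom 52 in GFP+ cells, with 0 hosts among them.

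Without KT13 and KT21 the treatment comparison again called 0 of 9. The errors shrank, except in GFP+ cells for Snhg12 (SE 0.183 to 0.187) and Snhg15 (SE 0.209 to 0.228). In GFP- cells, whose libraries all stay, the call rate over all genes went from 0.0% to 0.373% (55 of 14747) with a smaller estimate of the spread, which all groups share. Here 3 hosts were under an unadjusted p of 0.05: Snhg15 at -0.47 (SE 0.19), Snhg12 at -0.34 (SE 0.15) and Snhg6 at 0.68 (SE 0.28, interval 0.11 to 1.25), with edgeR adjusted p of 0.557, 0.649 and 0.584. In GFP+ cells 0 of 9 were called against 0.563% of all genes (83 of 14747), and no host was under an unadjusted p of 0.05. Snhg8 went from -0.18 (SE 0.41) to 0.02 (SE 0.15), Snhg5 from -0.27 to -0.01 and Snhg6 from -0.14 to -0.10 (SE 0.33). Snhg12 and Snhg15 kept groups that did not overlap in GFP+ cells, where 39.1% of all genes did with 2 libraries against 2, and in GFP- cells 0 of 9 did against 12.1%. Over all alternatives run, the lowest adjusted p of any host was 0.557 in GFP- and 0.648 in GFP+ cells.

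**Figure D3:**
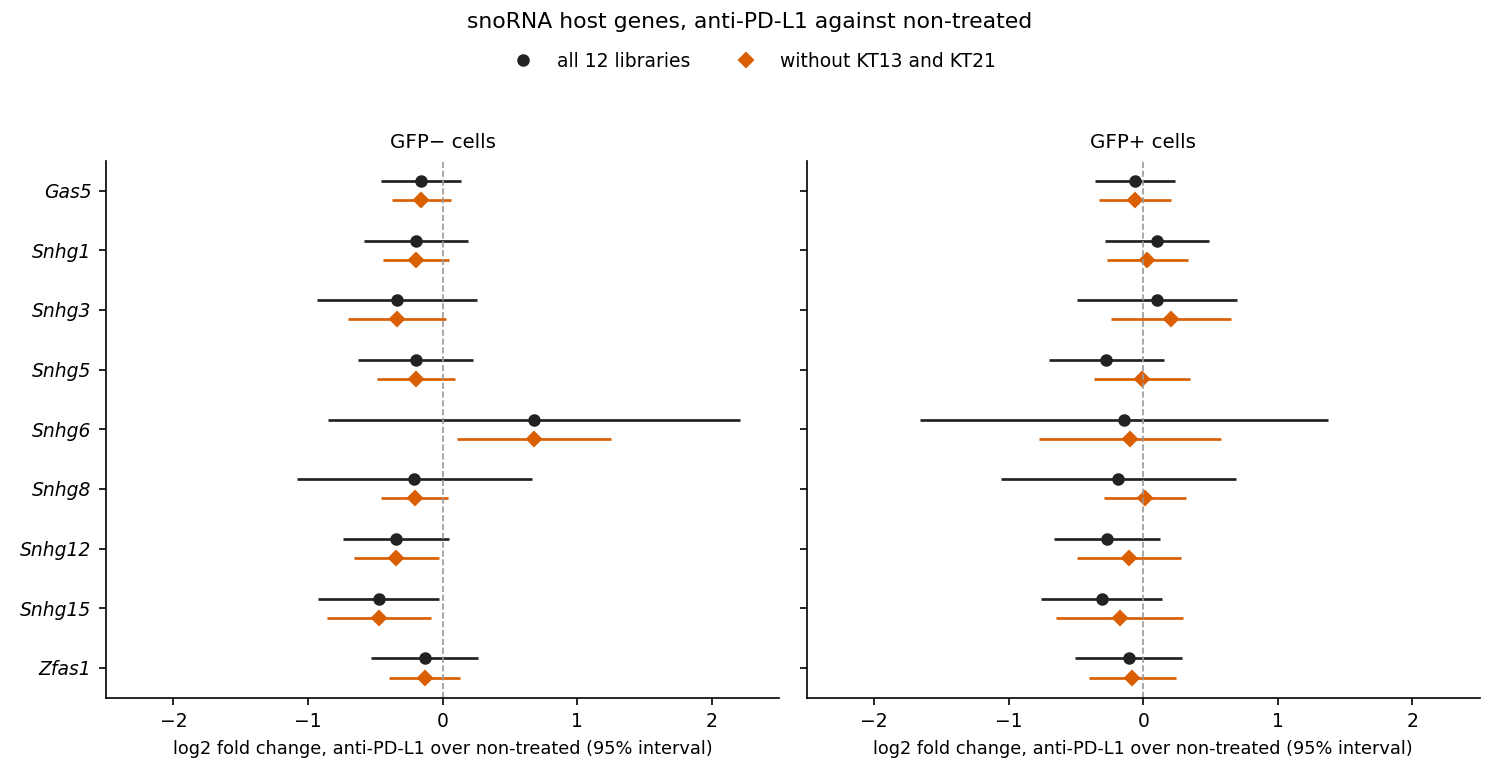
Log2 fold change of each host gene, anti-PD-L1 over non-treated (x axis, with 95% intervals as lines), in GFP- cells (left) and GFP+ cells (right), from all 12 libraries (black circles) and without KT13 and KT21 (orange diamonds). In GFP- cells 8 of 9 points lie below 0 and Snhg6 above it at 0.68, and no host is called in either panel.

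The summed marker levels of other cells and of handling moved with treatment too. The 7 macrophage and monocyte markers summed to 126 to 259 CPM in non-treated and 59.7 to 141 CPM in anti-PD-L1 libraries, and none of them was at 0 in all libraries. The 4 handling genes (Fos, Jun, Hspa1a, Hspa1b) summed to 622 to 1349 CPM in non-treated and 419 to 730 CPM in anti-PD-L1 libraries. The 4 epithelial markers summed to 14.8 to 31.9 CPM and 7.75 to 19.9 CPM, and small nuclear RNAs took 0.397% to 0.532% and 0.195% to 0.302% of counts. Their part in the lower Snhg12 and Snhg15 values was not tested. In these bulk samples, fewer cells of a type and less RNA per cell cannot be told apart.

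The difference between GFP+ and GFP- cells that led to the choice of these genes was largest for Snhg6 among the 9. In non-treated cells its log2 fold change was 0.89 (SE 0.71) over 12 libraries and 1.36 (SE 0.30) without KT13 and KT21, and leaving out 1 library at a time gave 0.57 (without KT17) to 1.36 (without KT13). The other 8 hosts lay between -0.52 (Snhg3, SE 0.28) and 0.18 (Snhg5, SE 0.20) over 12 libraries, 4 of them above 0 and 4 below, with a median over all 9 of 0.02. Without KT13 and KT21 they lay between -0.35 (Snhg3, SE 0.20) and 0.12 (Zfas1, SE 0.14), and the median over all 9 was 0.01. As a description of the comparison the genes were chosen on, from which nothing is read, 0 of 9 were past the threshold over 12 libraries (0.00706% of all genes) and Snhg6 alone over 10 (0.339%). In CPM, KT15 and KT17 at 25.7 and 25.8 stood above the 5.67 to 14.3 of the GFP- libraries, and KT13 at 3.92 below them. Snhg3 was the reverse, since all 3 GFP+ libraries were below the GFP- libraries. The NK markers, higher in GFP+ libraries as given above, were at 54.3 CPM in KT13 and 51.0 CPM in KT21, the libraries with least Snhg6, and their part in the difference was not tested. Hosts whose groups did not overlap were Snhg3 alone over 12 libraries (background 12.8%), and Snhg3 (lower) and Snhg6 (higher) over 10 (background 25.2%).

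After anti-PD-L1 the direction of the Snhg6 difference depended on single libraries. It was 0.07 (SE 0.71) over 12 libraries and 0.58 (SE 0.30) without KT13 and KT21. Leaving out 1 library at a time gave -0.56 (without KT23) to 0.58 (without KT21), with -0.12 without KT20 and -0.046 without KT19. The other 8 were between -0.15 (Snhg8, SE 0.41) and 0.29 (Snhg15, SE 0.21) over 12 libraries. Without KT13 and KT21 all 9 were above 0, from 0.03 for Snhg12 (SE 0.17) to 0.58 for Snhg6, with Snhg15 at 0.31 (SE 0.21) and Snhg8 at 0.28 (SE 0.13), and a median of 0.18 against 0.0045 over all genes. As a description again, 0 of 9 were past the threshold in both sets (0.0282% of all genes over 12 libraries and 0.17% over 10). No host had groups that did not overlap over 12 libraries (background 10.6%), and over 10 libraries Snhg8 did, higher in GFP+ cells (background 22.0%).

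**Figure D4:**
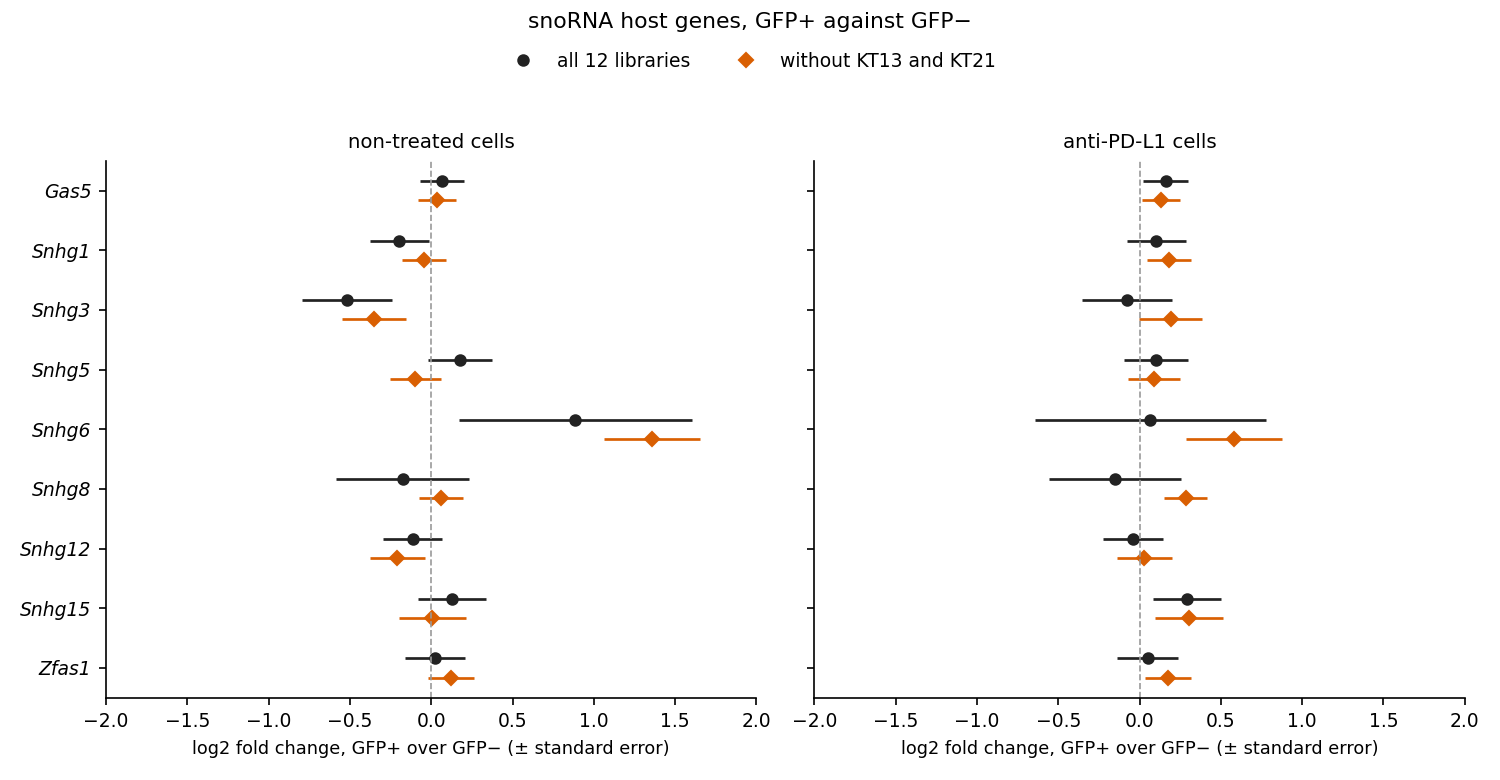
Log2 fold change of each host gene, GFP+ over GFP- (x axis, with ± standard error as lines), in non-treated cells (left) and after anti-PD-L1 (right), from all 12 libraries (black circles) and without KT13 and KT21 (orange diamonds), shown as a description since the genes were chosen on this comparison. Snhg6 lies farthest right in non-treated cells, at 0.89 and 1.36, and Snhg3 farthest left, at -0.52 and -0.35.

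The interaction asks whether the GFP difference changed with anti-PD-L1, or equally whether the treatment difference depended on GFP. It called 0 of 9 hosts against 0.0% of all genes over 12 libraries, with Snhg6 in that count as a description only. There edgeR had 295 genes and 0 hosts at an unadjusted p under 0.05, and DESeq2 and limma voom also called 0 genes. Without KT13 and KT21 the interaction again called 0 of 9 hosts against 0.0%, with 632 genes and 0 hosts at an unadjusted p under 0.05. For Snhg6 the interaction was -0.82 (SE 1.01, interval -2.98 to 1.33) and -0.78 (SE 0.43, interval -1.66 to 0.11) in the 2 sets, values that contain the non-treated GFP difference Snhg6 was chosen for. For Snhg3 it was 0.44 (SE 0.39) and 0.54 (SE 0.28), and the other 7 lay between -0.07 (Snhg5) and 0.30 (Snhg1) over 12 libraries, Snhg5 turning to 0.19 without KT13 and KT21. These intervals do not show that the hosts responded alike in GFP+ and GFP- cells.

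KT13 and KT21 split the hosts. Snhg3, Snhg6 and Snhg8 were lower in both than in any of the other 10 libraries, 3 of 9 hosts where 13.8% of the genes tested had this pattern. Relative to the median of the other 10, KT13 and KT21 were at 0.232 and 0.135 for Snhg6, at 0.574 and 0.232 for Snhg8, and at 0.574 and 0.481 for Snhg3. KT13 was instead the highest of the 12 for Gas5, Snhg5 and Snhg15, and no host was highest in both, against 10.4% of the genes tested. Rcc1, which shares exonic bases with Snhg3, was at 28.6 CPM in KT13 and 12.6 CPM in KT21 against 38.4 to 78.4 CPM in the others. Snord87, inside Snhg6, was low with its host in KT13, its second lowest library, but KT21 was its second highest.

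The other gene lists varied in these libraries. Of 80 ribosomal protein genes tested, 38 were higher in both KT13 and KT21 than in any other library and 10 were lower in both. The median over these 80 genes was 0.32 above the median of the other 10 libraries in KT13, and 0.24 above it in KT21, on the log2 scale. Over the 9 hosts the medians were -0.22 and -0.26, and over all genes tested -0.02 and -0.03. The 30 protein-coding snoRNA hosts were at 0.14 and -0.03, with 10 highest and 6 lowest in both, the 16 snoRNP proteins at 0.12 and 0.18, the 18 translation factors with 5′ TOP mRNAs at 0.07 and 0.19, and the 15 decay factors at 0.02 and 0.08. The 5 other noncoding hosts tested were at 0.24 and 0.07, and the 12 other long noncoding RNAs at 0.35 and 0.08. KT13 and KT21 also had the lowest totals, 11292699 and 12881695 counts against at least 13413916 in the other libraries. Their 10 highest genes took 8.85% and 8.10% of counts, against at most 7.91% in the others. The sample weights from limma voom were lowest for both, at 0.348 and 0.229 against at least 0.718. What sets KT13 and KT21 apart was not tested.

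**Figure D5:**
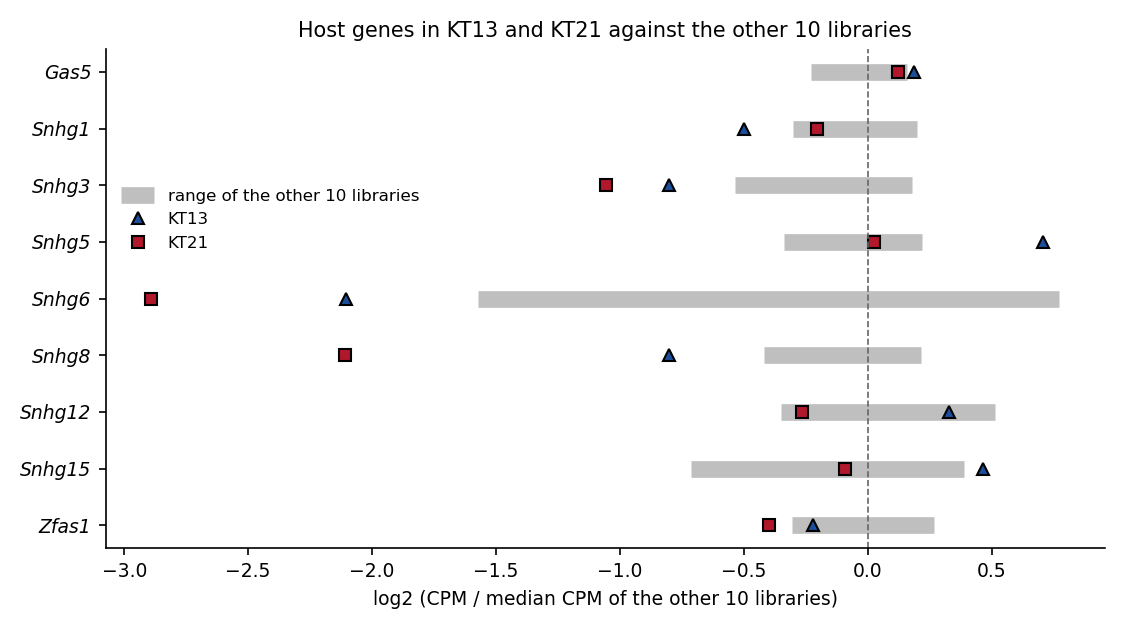
Level of each host gene in KT13 (triangles) and KT21 (squares) as log2 of its CPM over the median CPM of the other 10 libraries (x axis), with grey bars for the range of those 10 libraries. Both lie left of the bar for Snhg3, Snhg6 and Snhg8, the lowest point being Snhg6 in KT21, and KT13 lies right of the bar for Gas5, Snhg5 and Snhg15.

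The likeness of other genes to Snhg6 was measured as Pearson's r of log2(CPM + 0.5) over the 12 libraries, as a description, since points share the low KT13 and KT21 values. The 5 genes most like it among 14173 were Pank4, Ost4 (a subunit of the oligosaccharyltransferase), Crtc2 (a coactivator of CREB), Kansl2 (a subunit of the NSL acetyltransferase complex) and Pdgfb (a growth factor chain), each with r = 0.97. In all 5, KT13 and KT21 were also the lowest of the 12 libraries. Over the 10 libraries without them, r was 0.92 for Pank4, 0.97 for Ost4, 0.95 for Crtc2, 0.96 for Kansl2 and 0.92 for Pdgfb. None of the other 8 hosts was among these genes. Snhg8 was most like Snhg6 of the hosts, with r = 0.78 over 12 libraries and 0.22 over 10. The r of Snhg3 went from 0.60 to -0.24 and that of Zfas1 from 0.53 to 0.20, and over 10 libraries all 8 lay between -0.37 (Snhg12) and 0.22.

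The surrounding machinery showed no called gene in the treatment or interaction comparisons, with either set of libraries. Unless stated, the lists are given by their counts and medians over all 12 libraries. Medians over all genes were -0.0065 (GFP+) and -0.0053 (GFP-) in the treatment comparisons. Among other noncoding snoRNA hosts, 5 of 14 were tested and 4 of the 5 were lower after anti-PD-L1 in both GFP+ and GFP- cells, with medians of -0.11 and -0.33. Of these, Epb41l4aos was at 46.7 to 83.7 CPM and changed by -0.11 (SE 0.17) in GFP+ and -0.33 (SE 0.17) in GFP- cells, and Snhg9 was at 34.6 to 107 CPM and changed by -0.51 (SE 0.25) and -0.20 (SE 0.25). All these edgeR adjusted p were at least 0.761.

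The snoRNP proteins bind snoRNAs into working particles. All 16 were tested, and 12 were lower after anti-PD-L1 in GFP+ and 13 in GFP- cells, with medians of -0.13 and -0.10. Leaving KT13 and KT21 out gave 13 lower in each, with medians of -0.23 and -0.10. Nop58, a core protein of box C/D particles, was at -0.35 (SE 0.15) and -0.09 (SE 0.15), with edgeR adjusted p of 0.722 and 1, and Nop56, its partner, at -0.03 (SE 0.16) and -0.09 (SE 0.16). Of 30 protein-coding genes that host snoRNAs in their introns, 18 were lower in each of GFP+ and GFP- cells, with medians of -0.03 in both. Among these, Tpt1 was at 0.05 (SE 0.12) and -0.02 (SE 0.12) and Rpl23 at 0.01 (SE 0.17) and -0.06 (SE 0.17).

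Of 80 ribosomal protein genes, 50 were lower after anti-PD-L1 in GFP+ and 52 in GFP- cells, with medians of -0.02 in both. Rplp1 was at 0.02 (SE 0.13) and -0.04 (SE 0.13), and Rps23 at 0.03 (SE 0.23) and 0.02 (SE 0.23). The 18 translation factors with 5′ TOP mRNAs had medians of -0.025 and -0.0032, with 11 and 9 of them lower, and Eef2 was at -0.0012 (SE 0.19) and 0.05 (SE 0.19). Of the 15 factors of nonsense-mediated decay and the exon junction complex, 9 were higher in each, with medians of 0.05 and 0.02, and Rbm8a, a core protein of the exon junction complex, was at -0.32 (SE 0.21) and -0.06 (SE 0.21). Among 12 other long noncoding RNAs tested, 9 and 10 were lower, with medians of -0.26 and -0.31. Malat1 was at -0.26 (SE 0.25) and -0.52 (SE 0.25) and Neat1 at 0.47 (SE 0.31) and -0.08 (SE 0.31). When KT13 and KT21 were left out, GFP+ medians turned to 0.04 for the translation factors (8 lower) and -0.03 for the decay factors (6 higher). The GFP+ median of the other long noncoding RNAs went to -0.10 (8 lower). In GFP- cells the medians of these lists were then -0.0015, 0.03 and -0.31.

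Of the other noncoding hosts named, Snhg9 and Epb41l4aos, Snhg9 was the one higher in GFP+ cells. KT13 and KT21, the lowest libraries of Snhg6, were the highest and second highest of Snhg9. Its log2 fold change was 0.67 (SE 0.25) in non-treated cells and 0.36 (SE 0.25) after anti-PD-L1, and 0.34 (SE 0.17) and 0.12 (SE 0.17) without KT13 and KT21. Epb41l4aos lay the other way, at -0.27 (SE 0.17) and -0.06 (SE 0.17), and -0.33 (SE 0.16) and -0.12 (SE 0.16) without them.

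Between GFP+ and GFP- cells, 67 of the 80 ribosomal protein genes were higher in GFP+ in non-treated cells and 68 after anti-PD-L1, with medians of 0.18 and 0.17 on the log2 scale. Without KT13 and KT21 the counts were 75 and 74, with medians of 0.10 and 0.10. The hosts, given above, had medians of 0.02 and 0.07 over 12 libraries and 0.01 and 0.18 over 10.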

How the data were processed

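The authors deposited 1 table of raw read counts per gene, not normalized, for 12 QuantSeq 3′ libraries. Per the methods, 75-base single-end reads went through Cutadapt 2.1 for trimming, HISAT2 for alignment (mm10) and featureCounts (Rsubread 2.10.5) for counting, while the submitters' processing notes name cutadapt 1.7 and Subread 1.6.4. The handling of strand and of multiply mapped reads is not given in the sources used here. Symbols came from GENCODE vM21 (52489 identifiers matched).

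Counts were fitted with edgeR 4.0.16 (TMM, filterByExpr, quasi-likelihood F test) in 1 model of the 4 groups, with Benjamini-Hochberg adjustment over all genes tested. Alternatives were DESeq2 1.42.0, limma 3.58.1 voom with quality weights, RLE and upper-quartile factors, other filters, only the groups compared, and libraries left out. Steps were tested on simulated data with changes in anti-PD-L1 GFP- libraries only. Those data had less spread between libraries than the real ones, so they do not show how small a change could be detected here. Libraries are pools of mice, so p-values measure the spread between pools, and counts carry no molecular identifiers, so limits on zeros cover counting error only.

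The members and gene lists were chosen with earlier results of these data known. The text names all 9 hosts, the 5 genes most like Snhg6, for each list its called genes or, where none was called, the 2 with the highest mean CPM, and snoRNA genes with at least 10 counts in a library. One item is not reported here. Snora24, Rcc1, Gm17300, Mcmdc2 and Znfx1 were added for their position.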

Additional observations from a re-analysis of the deposited data

How the results depend on the processing

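Calls among the 9 hosts did not depend on the processing in the treatment and interaction comparisons: 0 were called under every alternative run, including each of the 12 fits without 1 library. The interaction of Snhg6 is in these counts as a description only. In the comparison the genes were chosen on, GFP+ against GFP- in non-treated cells, the count was 0 except without KT13 and KT21, where it was 1 (Snhg6), which restates that choice and is no test of it. Directions of small differences did change. Without KT13 and KT21, Snhg8 in GFP+ cells after anti-PD-L1 was at 0.016 and the interaction of Snhg5 at 0.19, and voom with sample weights put the latter at 0.11, each reversed in sign. With 1 library left out, the treatment difference in GFP+ cells ranged from -0.050 to 0.28 for Snhg1, -0.15 to 0.37 for Snhg3, -0.40 to 0.0020 for Snhg5, -0.77 to 0.37 for Snhg6, -0.56 to 0.25 for Snhg8 and -0.21 to 0.048 for Zfas1. The interaction ranged from -0.20 to 0.20 for Snhg5, -0.35 to 0.46 for Snhg8, -0.064 to 0.23 for Snhg12 and -0.094 to 0.18 for Zfas1. None of these was past the threshold. The cause was not tested.

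Over all genes, 12 libraries gave 2, 0, 1 and 4 calls by edgeR for treatment in GFP+ and GFP- cells and for GFP in non-treated and treated cells, against 93, 33, 53 and 47 by DESeq2, 52, 34, 12 and 20 by voom, and 123, 60, 78 and 49 with no filter beyond 1 count, where the interaction had 10 calls and elsewhere 0. Fitting only the groups compared gave 0, 51, 1 and 0. No paired analysis was possible because the labels give no replicate number that groups share. The biological coefficient of variation of Snhg6 was 0.596 over 12 libraries and 0.230 without KT13 and KT21, so changes within its wide intervals over 12 libraries were not detectable.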
